A study of Mus musculus with 2 samples.

Results

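The replication-dependent histone genes encode the linker histone H1 and the core histones H2A, H2B, H3 and H4, around which DNA is wound. Members were the genes whose RefSeq symbol is H1f1 to H1f5 (also written H1-1 to H1-5) or begins with H2ac, H2bc, H3c or H4c and a digit, formerly the Hist1 and Hist2 names. Of 64 such genes in the RefSeq table, 44 had a probe on the array, among 20143 genes named in all, with 48 probes between them. The 44 comprise 5 H1, 13 H2A, 10 H2B, 8 H3 and 8 H4 genes. The group was selected on its log2 ratios in this same comparison, which had been seen to lie mostly above 0, and its genes were then chosen by symbol. Its shared direction is therefore a description and carries no test.

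Both samples were C57BL/6 mouse bone marrow cells after 4 days of culture with GM-CSF at 40 ng/ml, which drives granulocyte and macrophage growth, and 5% serum (FBS). One culture received GM-CSF ONLY and the other GM-CSF + IL-6, with IL-6, an inflammatory cytokine, also at 40 ng/ml. Such cultures yield myeloid-derived suppressor cells, immature myeloid cells that restrain T cells, and the comparison asks what IL-6 adds. Each condition is 1 Cy3-labelled RNA on 1 Agilent array, so no replicates, no tests and no p-values are available. The labels do not say how many mice gave the marrow or whether cells were sorted.

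Replication-dependent histone genes are transcribed mainly in S phase, when new DNA must be packed into nucleosomes. They lack introns, and their mRNAs end in a stem-loop that the protein SLBP binds, in place of the poly(A) tail of other mRNAs. Most lie in large clusters with many near-identical copies, and H2A and H2B genes often sit head to head around a shared promoter region. In dividing bone marrow precursors these mRNAs are abundant, and they are lost quickly when DNA synthesis stops. Since copies are so alike and the arrays' probe sequences were not used here, a probe named for 1 histone gene may also read its copies, and values are given as those of the named probe.

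Promoter stretches of 5 members are shown, because each had the largest log2 ratio of its class among members with a promoter entry, and because the H2A and H2B stretches come from the 2 sides of 1 shared region. Each is the 150 bases directly before the RefSeq start, 5′ to 3′ on the gene's strand, from RefSeq on GRCm38.p6. Capitals mark matches to the searched motifs described below.
H1f5 (chr13:21780626-21780775, minus strand): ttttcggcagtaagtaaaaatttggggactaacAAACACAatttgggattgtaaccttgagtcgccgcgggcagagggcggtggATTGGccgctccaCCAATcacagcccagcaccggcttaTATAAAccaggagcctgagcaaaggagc
H2bc8 (chr13:23571250-23571399, plus strand): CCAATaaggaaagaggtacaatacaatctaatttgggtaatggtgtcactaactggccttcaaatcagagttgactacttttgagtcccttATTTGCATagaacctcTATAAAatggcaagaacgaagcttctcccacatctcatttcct
H2ac8 (chr13:23571221-23571370, minus strand): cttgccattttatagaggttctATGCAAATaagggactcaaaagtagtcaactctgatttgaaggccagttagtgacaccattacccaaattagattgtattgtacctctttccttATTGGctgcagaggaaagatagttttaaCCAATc
H4c17 (chr13:21811596-21811745, plus strand): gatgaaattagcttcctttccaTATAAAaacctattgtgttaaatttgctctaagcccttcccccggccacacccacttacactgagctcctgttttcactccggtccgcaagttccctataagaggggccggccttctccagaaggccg
H3c14 (chr3:96246535-96246684, plus strand): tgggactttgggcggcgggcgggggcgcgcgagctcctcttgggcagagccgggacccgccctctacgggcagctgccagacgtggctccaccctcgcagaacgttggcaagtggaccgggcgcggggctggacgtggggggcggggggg
In H1f5, AAACACA (a motif known from H1 promoters) began at position -117 from the start, CCAAT at -53 (with its reverse complement ATTGG at -66) and TATAAA at -28. In H2bc8 the octamer ATTTGCAT, a binding site of OCT1 known from H2B promoters, began at -59 and TATAAA at -43, with CCAAT at -150. The same octamer appears in the H2ac8 stretch as its reverse complement, ATGCAAAT, at -128, beside CCAAT at -6 and ATTGG at -34. H4c17 held TATAAA at -128. The H3c14 stretch held none of the motifs searched, although CCAAT was found elsewhere in its longer window.

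Promoter entries were matched by symbol for 39 of the 44 members, using the first listed start and the window from 250 bases before to 50 after it. Motifs were CCAAT, ATTTGCAT and AAACACA on both strands and TATAAA on the gene's strand, none of which overlapped in the stretches shown. CCAAT was found in 34 of 39 members (87.2%), against 37.9% of 27025 promoters of all genes. All 5 H1, 13 H2A, 8 H2B and 6 H3 windows held it, while 2 of 7 H4 windows did. ATTTGCAT was found in 5 of 8 H2B (62.5%) and 6 of 13 H2A windows (46.2%), in 0 H1, H3 or H4 windows, and in 1.75% of all promoters. AAACACA was found in 4 of 5 H1 (80%), 2 of 8 H2B (25%) and 2 of 13 H2A windows (15.4%), in 0 H3 or H4 windows, and in 7.14% of all promoters. TATAAA was found in 23 of 39 members (59%), against 8.88%. Among the 8 H2B genes with a promoter entry, the 5 with the octamer had log2 ratios from 0.20 (H2bc18) to 0.73 (H2bc8). The 3 without ran from 0.05 (H2bc22) to 0.35 (H2bc23), so both ranges overlap. H2bc4 (-0.24) and H2bc21 (-0.20), the lowest of the class, had no promoter entry and are not in this comparison. A match describes the letters in the window and was not tested as a site of control.

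Histone genes were slightly higher with IL-6. Signals are the deposited processed intensities scaled so that both arrays share a 75th percentile of 517, and the log2 ratio is GM-CSF + IL-6 minus GM-CSF ONLY. Of the 44 genes, 43 were measured, meaning well above background on both arrays, and 39 of these had a log2 ratio above 0 and 4 below. Among all 13843 genes measured, 43.8% were above 0 and 56.2% below. The histone median was 0.19, against -0.02 for all genes. At least 1.2-fold higher were 12 of the 43 and 0 were 1.2-fold lower, where 6.36% of all genes were 1.2-fold higher and 5.97% lower. At 2-fold, 0 members were higher or lower, against 0.282% of all genes higher and 0.101% lower. At shares this low, 0 of 43 says little about the group. By probe, 43 of 47 measured probes lay above 0, with a median of 0.19.

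**Figure D1:**
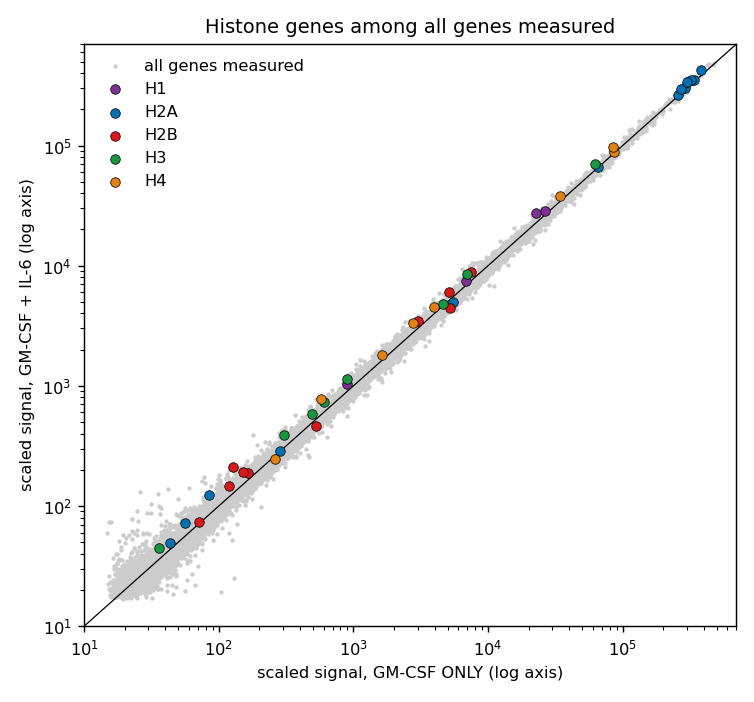
Scaled signal of each gene measured on both arrays, GM-CSF ONLY on the horizontal and GM-CSF + IL-6 on the vertical axis, both logarithmic; grey points are all 13843 genes, coloured points the 43 histone genes by class, and the line marks equal signals. Histone genes lie close to the line along the whole range of signals, with 39 of 43 above it.

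The error given with each value is a technical SD, from probes printed several times on the same array. It ran from 0.04 on the log2 scale for bright to 0.27 for dim probes and holds the error between spots, while that of labelling and culture is not in it. By more than 2 technical SD, 27 of the 43 histone genes lay above 0 and 3 below. The same was true of 12.4% of all genes above and 18.6% below, so many genes outside the group pass this bound too. Among 30 members brighter than the 75th percentile signal, 28 were above 0 with a median of 0.16, against 40% of 8049 such genes and a median of -0.03. At least 1.2-fold higher were 5 of these 30, and 0 were 1.2-fold lower, against 1.89% and 2.42% of the bright genes. Members below that signal numbered 13, of which 11 were above 0, with a median of 0.29, so that 7 of the 12 genes past 1.2-fold were dim. Of all 5794 genes below that signal, 2848 were above 0, with a median of -0.004. At least 1.2-fold higher were 729 of these 5794 genes, and 631 were 1.2-fold lower.

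Linker histone H1, which binds the DNA that enters and leaves the nucleosome, was higher in all 4 measured members, with a median of 0.17. H1f5 had a signal of 27187 with IL-6 and 22705 without (log2 ratio 0.26 ± 0.04). H1f1 had 1037 against 893 (0.22 ± 0.07). Both differences exceeded the technical SD several times. H1f2, whose gene is also known to be active in non-dividing cells, had 7480 against 6891 (0.12 ± 0.05), and H1f4 had 28491 against 26413 (0.11 ± 0.04, or 0.23 with normexp). None of these 4 H1 genes reached 1.2-fold, although H1f5 passed it with cyclic loess, quantile normalization, normexp and the authors' matrix. The probe of H1f3, the fifth H1 gene, was not well above background on either array, at 15.6 with IL-6 and 6.27 without, so no fold is given.

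Histone H2A forms a dimer with H2B on the outside of the nucleosome core. Its 13 measured members had the lowest class median, 0.10, with 12 above 0 and 2 past 1.2-fold. H2ac8 was furthest above, at 124 with IL-6 and 83.9 without (1.48-fold, log2 ratio 0.57 ± 0.15). Its probe lay in 1 of 9 small areas of the array crowded with differing probes, and the part of this position in its value was not tested. H2ac6 had 71.6 against 55.9 (0.36 ± 0.15), and H2ac21, also dim, had 49.6 against 43.3 (0.20 ± 0.27), within its technical SD. With normexp H2ac8 had 0.33 and H2ac6 0.23, which left 1 H2A gene past 1.2-fold, and the stricter filter on dim probes removed both genes and left 0.

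H2A probes with high signals differed little between the arrays. H2ac15 was read by 2 probes, at 337844 against 302509 (0.16 ± 0.04) and 58927 against 54076 (0.12 ± 0.04), and both gave the same direction. H2ac1, a histone known from testis, had 285 against 284 (0.00 ± 0.08). The lowest ratio belonged to H2ac18, at 4995 with IL-6 and 5479 without (-0.13 ± 0.05), the only H2A gene below 0. The other 7 H2A genes ranged from 0.02 (H2ac4) to 0.16 (H2ac12). With quantile normalization 10 of the 13 stayed above 0, with a median of 0.05, and with normexp background correction 9 did, with 0.04, as H2ac10 was below 0 and H2ac19 at 0 in the former, and H2ac1, H2ac11 and H2ac15 were below 0 in the latter. No spot was saturated on either array.

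Histone H2B members had a median of 0.22 and held both the largest and the lowest log2 ratio of all histone genes. Of 10 measured, 8 were above 0, and 3 passed 1.2-fold. H2bc8 had 212 with IL-6 and 127 without (1.66-fold, log2 ratio 0.73 ± 0.15). Its ratio was above that of 99.4% of all genes measured, bright and dim together. It had 0.54 with normexp. It was followed by H2bc23 with 192 against 150.3 (0.35 ± 0.15) and H2bc3 with 145 against 119 (0.29 ± 0.15), all at low signal. H2bc23 had 0.25 with normexp, which left 2 H2B genes past 1.2-fold. At higher signal H2bc14 had 8891 against 7491 (0.25 ± 0.05), and H2bc1, a form known from testis, 6013 against 5108 (0.24 ± 0.05).

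H2B also held a pair of genes that were lower with IL-6. H2bc4 had 4429 with IL-6 and 5213 without (1.18-fold lower, log2 ratio -0.24 ± 0.05), a ratio above that of only 7.72% of genes. H2bc21 had 459 against 527 (-0.20 ± 0.08). Both kept their sign under all 11 processing alternatives. Neither reached 1.2-fold, and H2bc4 had -0.13 with normexp. The remaining H2B genes lay between, at 0.05 ± 0.15 for H2bc22 (-0.04 with normexp) and 0.20 for H2bc6 and H2bc18.

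Histone H3, whose tail carries many of the known chromatin marks, had the highest class median, 0.29, with 8 of 8 measured members above 0 (7 of 8 with normexp, where H3c3 had -0.01). Past 1.2-fold were 5 of them, but with normexp 2, H3c7 and H3c14, and the class median was then 0.19. H3c1 had 392 with IL-6 and 305 without (1.28-fold, log2 ratio 0.36 ± 0.08). H3c7 had 1135 against 901 (0.33 ± 0.07) and H3c14 8593 against 6927 (0.31 ± 0.05). Each of these differences was several times its technical SD. The lowest were H3c3, at 4781 against 4628 (0.05 ± 0.05), and H3c4, at 70556 against 61970 (0.19 ± 0.04). H3c15 had 0.30 ± 0.27 at signals of 44.4 and 36.1, close to its error and 0.04 with normexp, and H3c11 and H3c8 had 0.29 and 0.25.

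Histone H4, the partner of H3 in the core tetramer, had a median of 0.18 with 7 of 8 members above 0 (6 with normexp, where H4c14 was below). H4c17 had 775 with IL-6 and 572 without (1.35-fold, log2 ratio 0.44 ± 0.07). H4c3 had 3334 against 2775 (0.26 ± 0.05). These were the only H4 genes past 1.2-fold in the reported setting. H4c3 dropped under 1.2-fold with median centring, and H4c12 passed it with normexp (0.36). H4c8 was the only one below 0, at 244 against 259 (-0.09 ± 0.08), close to its technical SD.

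Several H4 genes had 2 probes. Those of H4c12 gave 0.21 ± 0.04 (97586 against 84197, in the outermost spots of the array) and 0.17 ± 0.04 (12783 against 11369). The probes of H4c9 gave 0.16 ± 0.05 and 0.13 ± 0.05. Probes of these genes agreed within their error. The H4c14 probes did not, with 0.04 ± 0.04 at signals of 88175 and 85945 and 0.48 ± 0.15 at 81.4 and 58.3, and their mean was 0.26. H4c11 and H4c4 had 0.19 and 0.15.

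**Figure D2:**
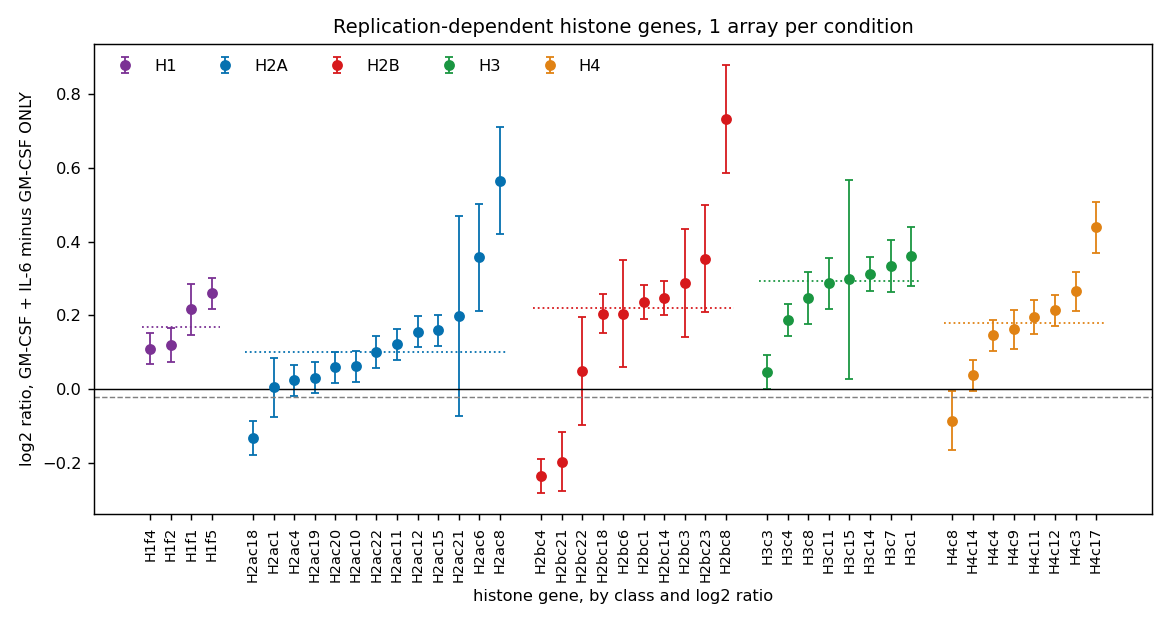
Log2 ratio of GM-CSF + IL-6 minus GM-CSF ONLY for each of the 43 measured histone genes, ordered by value within its class; error bars are 1 technical SD, dotted lines class medians, the dashed line the median of all genes (-0.02). All H1 and H3 points lie above 0, and the 4 points below 0 are H2ac18, H2bc4, H2bc21 and H4c8.

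By location, 32 of 34 members of the large cluster on chromosome 13 were above 0, with a median of 0.20. On chromosome 3, which holds the smaller cluster, 7 of 9 were, with a median of 0.06. The gene contents of the clusters differ by class and were not compared further. Among neighbours within 1000 bases where both genes had a promoter entry, 9 H2A and H2B pairs lay head to head. Of these 9 pairs, 3 had both members measured. H2bc4 (-0.24) and H2bc21 (-0.20), the H2B genes below 0, had no promoter entry, so no pair with them could be counted. The H2ac8 and H2bc8 pair, whose shared region is shown above, had 0.57 and 0.73. H2ac22 and H2bc22 had 0.10 and 0.05, and H2ac1 and H2bc1 had 0.00 and 0.24. In these 3 pairs both members were above 0, although H2ac1 and H2bc22 were below it with normexp, and the difference between partners ranged from -0.05 to 0.23 (H2B minus H2A).

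Older Hist names also belong to 4 probed genes that the symbol rule leaves out. H4f16, once Hist4h4, had 19039 with IL-6 and 16478 without (0.21 ± 0.04), while H2aw, once Hist3h2a, had 1858 against 2061 (-0.15 ± 0.05). H2bu2 had 0.08 ± 0.15 and H1f6, a testis form, -0.13 ± 0.27. H4f16 thus lay near the H4 median and H2aw below 0.

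Variant histones, most of which are also made outside S phase and can replace the standard ones, were not higher as a group. Their list includes H2bu2 (0.08 ± 0.15), also given above with the older Hist names. Of 17 listed, 13 were measured, with 7 above 0, 6 below, 0 past 1.2-fold in either direction and a median of 0.02. The highest were H1f0, a linker form of resting cells, at 147 against 127 (0.21 ± 0.15), and H3f3b, which encodes H3.3, at 93092 against 84529 (0.14 ± 0.04). Macroh2a1 had 0.13 ± 0.04. The lowest were H2az2 (-0.13 ± 0.04) and H3f3a (-0.11 ± 0.04), the other H3.3 gene, so that the H3.3 genes lay on opposite sides of 0.

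**Figure D3:**
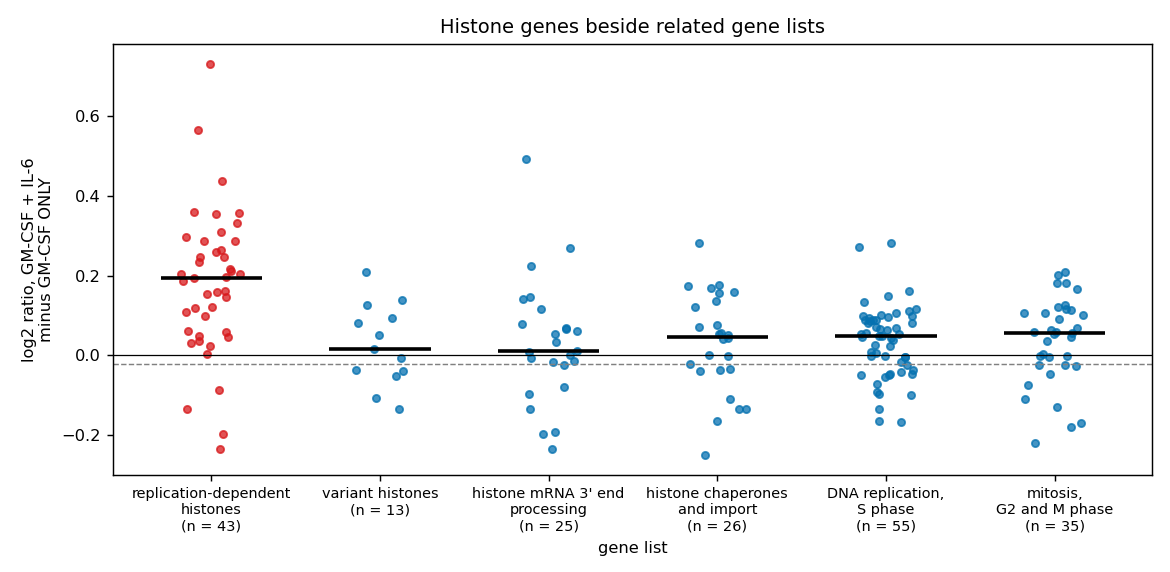
Log2 ratio of each measured gene in the replication-dependent histone group (red, 43 genes) and in 5 related lists (blue); black bars are medians and the dashed line the median of all genes (-0.02). The histone median is 0.19 and those of the other lists run from 0.01 to 0.06.

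Genes that process histone mRNA also showed no common direction. Of 25 measured, 15 were above 0 and 10 below, with a median of 0.01 and 2 past 1.2-fold higher. These were Npat, the coactivator of histone gene transcription, at 28 against 19.9 (0.49 ± 0.27), and Lsm11, a part of the U7 particle that cleaves histone transcripts, at 456 against 378 (0.27 ± 0.08). Npat had 0.14 with normexp and was removed by the stricter filter on dim probes and with the crowded tiles and outermost spots, while Lsm11 stayed past 1.2-fold in all 11 alternatives. Cstf2, a cleavage factor, had 0.22 ± 0.07. The lowest were Zfp473 (-0.23 ± 0.15) and Mif4gd (-0.20 ± 0.05, or -0.12 as a mean over its probes), a translation partner of SLBP. Slbp itself, named after its value was seen, had 1009 against 1079 (-0.10 ± 0.07).

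Histone chaperones and import factors, which carry new histones to DNA, had a median of 0.05 with 15 of 26 above 0. Mcm2, a subunit of the replicative helicase that also binds H3 and H4, had 4567 with IL-6 and 3755 without (0.28 ± 0.05) and was the only one past 1.2-fold. Nap1l1 and Rbbp4 had 0.18 ± 0.04 and 0.17 ± 0.04. The lowest were Hira, the chaperone of H3.3, at 267 against 318 (-0.25 ± 0.08), and Nap1l4 (-0.16 ± 0.05). Hira had -0.11 with normexp and was removed with the crowded tiles and outermost spots, and Nap1l4 had -0.04 as a mean over its probes.

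DNA replication genes had a median of 0.05, with 35 of 55 above 0 and 2 past 1.2-fold higher, Mcm2 and the origin recognition gene Orc1 (0.27 ± 0.15). Orc1 was under 1.2-fold with quantile normalization and the authors' matrix (both 0.26) and with normexp (0.20). E2f1, an activator of S phase genes, had 0.16 ± 0.05 (0.10 with normexp), while Cdc7 had -0.17 ± 0.27 and E2f2 -0.16 ± 0.04. Mitosis genes had a median of 0.06 with 22 of 35 above 0 and 0 past 1.2-fold. Among them Hmmr, Anln and Plk1 had 0.21, 0.20 and 0.18, and Cenpf and Pttg1 -0.22 and -0.18 (Pttg1 -0.07 as a mean over its probes). Both lists lay above the median of all genes and below that of the histone group.

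The labelled cell type was checked against 20 myeloid genes, among them Itgam, S100a8 and S100a9, and all 20 were measured on both arrays. Of these, 9 were above 0 and 11 below, from -0.25 (Csf1r) to 0.16 (Spi1), with a median of -0.05. Markers of other marrow cells differed in both directions, some by more than most histone genes, and in bulk RNA fewer cells of a type and less RNA per cell cannot be told apart. Erythroid markers were measured in 8 of 15 probed genes, 7 of them above 0 with a median of 0.15. Their signals summed to 8695 with IL-6 and 7897 without, of which Tfrc was the largest part (3260 against 2917). The haemoglobin gene Hba-a1 had 163.9 against 101.8 (1.61-fold, log2 ratio 0.69 ± 0.15) and was the only erythroid marker past 1.2-fold. The brighter haemoglobin gene Hbb-bt had 1344 against 1257 (0.10 ± 0.05), Gata1 had 0.02 ± 0.05 and Epor -0.01 ± 0.15. The defining erythroid genes Klf1 and Alas2 were not measured on both arrays. Mast cell and basophil markers were above 0 in 8 of 10, with a median of 0.16, sums of 58682 and 54925, and 3 past 1.2-fold higher. Megakaryocyte markers were below 0 in 10 of 13, with sums of 40469 and 44099 and 3 past 1.2-fold lower. Stem and progenitor markers had a median of -0.01, B lineage markers -0.06 (1 of 10 past 1.2-fold lower) and T and NK lineage markers -0.03. Stromal markers were measured in 7 of 13, 5 of them above 0, with a median of 0.09. Their sums of 30292 and 28001 were mostly the signal of Thy1 (24632.5 against 23191.8). Past 1.2-fold were 2 of the 7 stromal markers, both at low signal. The matrix gene Sparc had 100.4 against 36.0 (2.79-fold, log2 ratio 1.48 ± 0.27), which is past 2-fold. The collagen gene Col1a2 had 76.7 against 53.2 (1.44-fold). The 2 stromal markers below 0 were the other collagen gene measured, Col1a1, at 68.5 against 75.1 (-0.13 ± 0.15), and Pdgfrb (-0.02 ± 0.27). The part of these cells in the histone values was not tested.

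**Figure D4:**
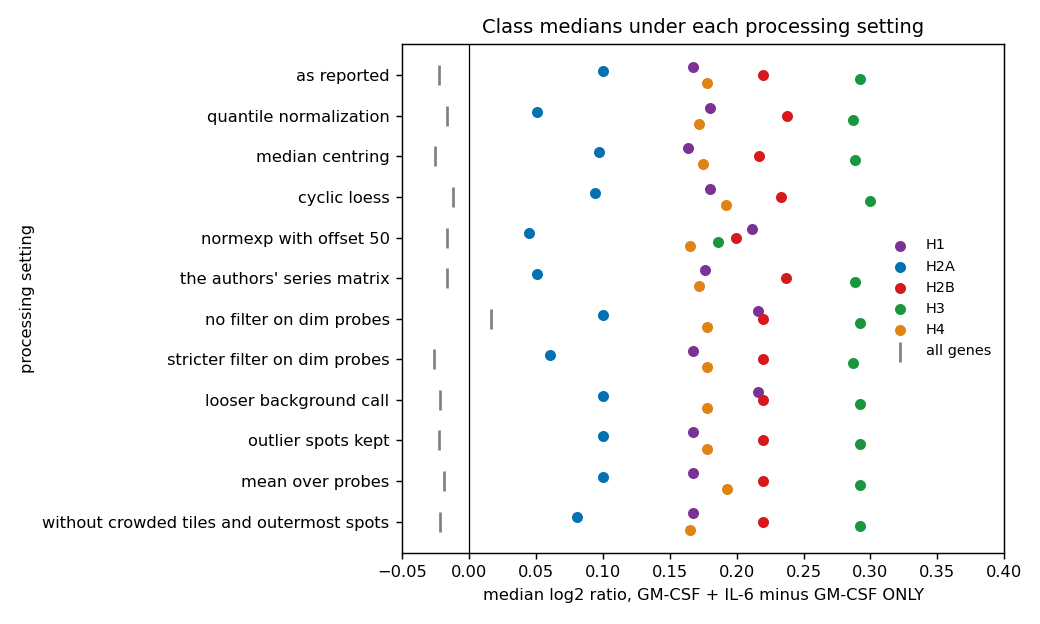
Median log2 ratio of each histone class (coloured points) and of all genes measured (grey bars) with the reported setting and 11 other processing settings. The class medians lie above 0 in each of these settings, with H2A lowest, and H3 is highest in all of them but normexp.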

How the data were processed

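Total RNA of 2 bone marrow cultures was measured on 1 Agilent array each, with 1 channel (Cy3), per the labels. Spot intensities were extracted and detrended by the authors in version 10.7.1.1 of Agilent's Feature Extraction software, as deposited, and are not scaled between arrays. Flags for background and outliers come from the same deposited files and hold no further unit. The authors' series matrix holds log2 values whose sorted columns differ by at most 0.0014 between arrays. Scale and direction follow from r = 1.00 with each array's own log2 intensity, and both column medians are 5.10; which method made them so is not stated there. The labelling kit amplifies RNA linearly, per the labels' protocols, and its primer is not given there, so how well it copies mRNAs without a poly(A) tail was not tested.

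Log2 of the processed intensity minus the array's 75th percentile over 59305 non-control spots was used. After removal of outlier spots and averaging within probes, 55669 probes remained. Measured means that 50% or more of these spots exceeded the background flag, and each gene took its brightest probe measured on both arrays. RefSeq accessions were present for 28109 probes, of which 26577 were named through the RefSeq table. The technical SD came from probes with at least 5 usable spots, in 8 bins of level, divided by the square root of a probe's spots. Well above background were 58.6% of spots with IL-6 and 59.7% without; the number of arrays limits the precision. With 1 array per condition no test was made.

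Members, lists and alternatives were chosen with earlier results of these data known. Named were the 3 highest and 2 lowest measured members of each class and comparison list, members with more than 1 probe or measured on 1 array only, and classes of 6 or fewer whole; further members complete the classes and were named after their values were seen. The summary functions were tested on simulated data. Tools were Python 3.11.15, numpy 2.4.6, pandas 2.3.3, matplotlib 3.10.9, and R 4.3.3 with limma 3.58.1. Crowded areas are tiles of 16 rows by 12 columns of spots that hold at least 4 probes without a gene name that differ 2-fold.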

Additional observations from a re-analysis of the deposited data

How the results depend on the processing

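Scaling was changed to cyclic loess, median centring, quantile normalization, the authors' matrix, or normexp (offset 50). Dim probes were all kept, filtered more strictly or called against background more loosely, outlier spots were kept, probes of a gene were averaged, and crowded tiles with the outermost spots were left out. Across these 11 settings the histone median kept its direction, and 32 of 43 members were never below 0 (H2ac19 was at 0 with quantile normalization and in the authors' matrix), 4 stayed below and 7 changed sign in at least 1 setting. The class medians that moved by more than the median technical SD of their members were those of H2A, to 0.0507 with quantile normalization, 0.0507 with the authors' matrix and 0.0447 with normexp; of H1, to 0.2118 with normexp and 0.2162 both without a filter and with the looser background call, which add H1f3; and of H3, to 0.1864 with normexp. The cause was not tested for the other moves. Normexp also gave 4 of the 26 named members another sign, H2ac1, H2ac15, H3c3 and H4c14. Their normexp values lay within 0.03 of 0, but H2ac15 came there from 0.16. With normexp 33 of 43 members were above 0, against 39 in the reported setting. Of 281 recomputed log2 ratios of named members, 265 moved by less than the technical SD and 16 by more, and of 256 for genes of the other lists 245 and 11. Restricted to members above the 75th percentile signal, a choice made after seeing the data, 5 genes instead of 12 were 1.2-fold higher. With the genes of older Hist names added, also chosen afterwards, 41 of 47 were above 0. Leaving out probes matched by a second histone probe was not run, because probe sequences were not used here. No paired analysis was possible because there was only 1 array in each condition. Signal over background limits the dim members, whose technical SD reached 0.27.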
